A study of Homo sapiens with 18 samples.

Results

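The collagen chain genes were followed across 6 conditions of a human breast cancer cell line. They were taken as the rows of the count matrix whose Ensembl identifier maps to a protein-coding symbol made of COL, a type number, A and a chain number. This gave 44 of 57448 rows, all 44 such genes of GENCODE release 44, and they cover 28 collagen types. The study asked what the loss of GPS2, a subunit of nuclear corepressor complexes and an inhibitor of non-degradative ubiquitination, changes in MDA-MB-231 cells, a triple negative breast cancer line, and which changes go through the kinase AKT. RNA was sequenced after depletion of ribosomal RNA, with 3 replicates in each group. WT is the parental line, without modification or treatment. KO1 and KO2 are GPS2 knockout lines made by CRISPR-Cas9 with different sets of guides to exons 2 and 6, delivered in LentiCRISPRv2, and each was kept as a heterogeneous pool after puromycin selection. The myrAKT line was transduced with the retrovirus pBABEpuro-myrFLAG-AKT, which encodes a constitutively active, myristoylated AKT1. KO1+MK and KO2+MK are the knockout lines after 4 h in 10 µM MK2206, an allosteric AKT inhibitor. No vehicle, no empty-vector WT and no treated WT group is named in the labels, so vector, selection and GPS2 loss cannot be told apart in the comparisons with WT. In the same way, transduction and active AKT cannot be told apart in myrAKT, nor MK2206 and its solvent or handling in the treated groups. Nothing states that replicates came from separate cultures, so p-values measure the spread between these libraries, which may be technical.

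Collagens are the main fibrous proteins of the extracellular matrix, and each molecule is a triple helix wound from chains that are often encoded by separate genes. Fibrillar types such as I and V build the fibrils of connective tissue, type IV builds the network of basement membranes, type VI forms beaded filaments around cells, and type VII anchors epithelia to the stroma. Fibril-associated types such as IX, XII and XVI decorate fibrils, types XIII and XVII span the cell membrane, and type XVIII carries endostatin at its end. In breast tumours fibroblasts lay down most of the fibrillar matrix, while carcinoma cells make and remodel a part of it.

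Library depth ran from 23419198 to 39319910 counted reads, and the 6 treated libraries (at most 29939536 reads) were all shallower than the 12 untreated ones (at least 30287210). The MDA-MB-231 markers VIM, CD44 and EGFR lay between 400 and 1812 CPM (counts scaled to TMM-normalised library size) in the 18 libraries, while PGR and CDH1 stayed at or below 0.137 CPM, ESR1 was at 0.690 to 1.38 CPM and EPCAM at 3.15 to 12.2 CPM. Of 7 fibroblast markers, DCN, LUM, FAP and POSTN stayed at or below 0.0640 CPM and PDGFRA at or below 0.205 CPM, but PDGFRB (5.12 to 21.2 CPM) and ACTA2 (1.55 to 7.45 CPM) were present. The summed level of the fibroblast list was 21.5 to 24.8 CPM in WT, 14.1 to 15.2 in KO1, 15.4 to 16.3 in KO2 and 11.5 to 13.9 in myrAKT, and after MK2206 it was 13.2 to 14.7 in KO1 and 14.4 to 16.2 in KO2. The leukocyte markers PTPRC and CD3E stayed at or below 0.146 CPM, and CD14 ranged from 0.436 to 2.11 CPM. GPS2 itself was at 4.39 to 4.88 CPM in WT, 4.45 to 4.52 CPM in KO1 and 5.88 to 6.12 CPM in KO2, so the libraries labelled knockout lay within or above the WT range (log2 fold change 0.19 ± 0.13 SE, adjusted p = 0.246). A gene count does not measure the edit, and the study reports western blot and genomic PCR as its evidence for the knockdown. AKT1 was at 133 to 135 CPM in WT and 218 to 242 CPM in myrAKT (log2 fold change 0.77 ± 0.044 SE, adjusted p = 4.27e-09), higher in the line labelled as carrying it.

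Of the 44 chains, 19 reached at least 1 CPM in at least 3 libraries and were tested, and 25 did not. The tested chains belong to 14 collagen types, and the other 14 types had no tested chain. No chain was without any count, and 28 had a count in every library, but 13 averaged under 0.1 CPM, which is near the 0.0763 to 0.128 CPM that 3 counts are worth in these libraries. A count of 0 can hide up to 3 counts, and this limit covers counting error only. The 8 chains with the most counts, which also grow with gene length, held 88.1% of all collagen counts, and 6 chains averaged over 100 CPM. By class, the tested chains were 4 of 11 fibrillar chains, 3 of 6 type IV chains, 3 of 5 type VI chains, COL7A1, 1 of 3 short-chain network chains, 4 of 10 fibril-associated chains, 2 of 4 transmembrane chains and 1 of 2 multiplexins, and neither of the 2 chains outside these classes was tested. The tested chain COL20A1 passed the filter only through the libraries treated with MK2206.

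**Figure D1:**
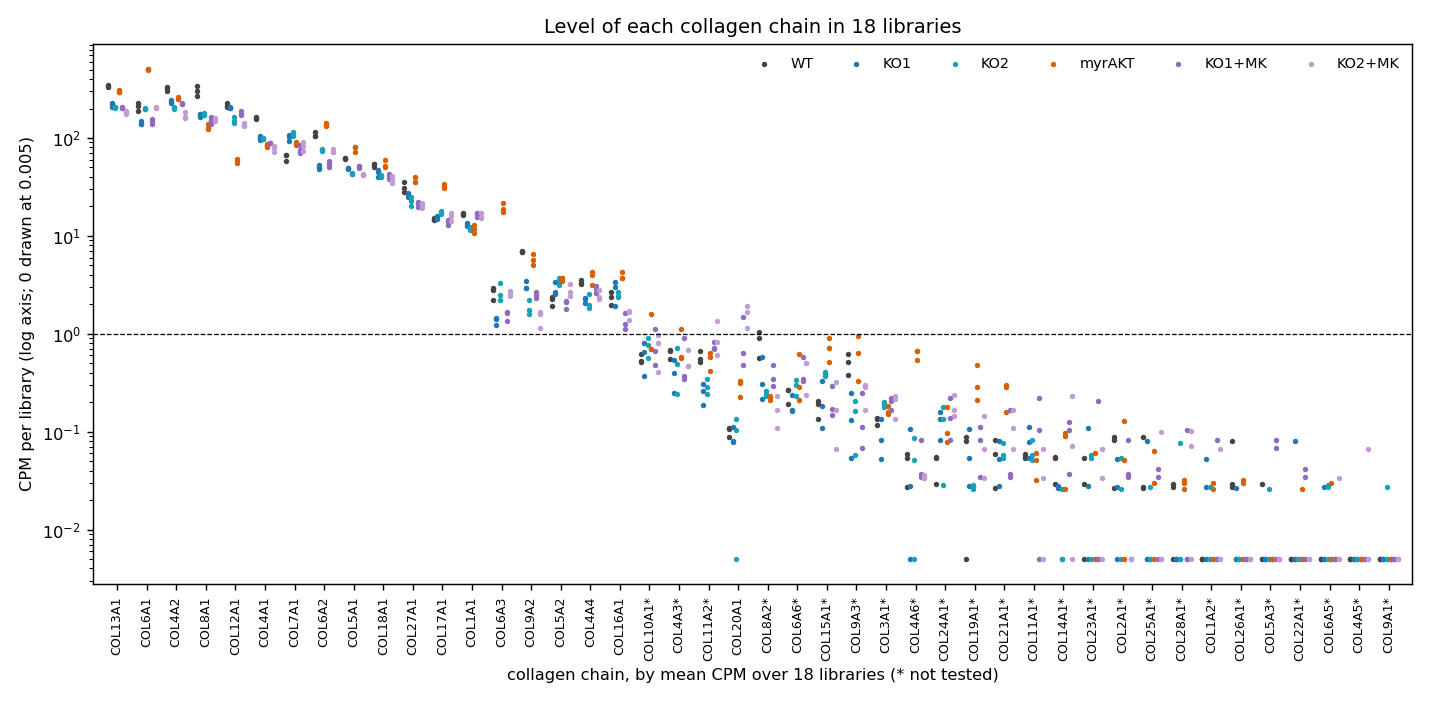
CPM of each of the 44 collagen chains in each of the 18 libraries on a log axis, ordered by mean, with 1 point per library coloured by group; the dashed line is 1 CPM, an asterisk marks the 25 chains that were not tested, and counts of 0 are drawn at 0.005 CPM. Of the chains, 13 averaged over 10 CPM, and the orange myrAKT points of COL6A3 stand at 17.4 to 21.6 CPM against 1.24 to 3.27 CPM in the other groups.

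Collagen chains together took 0.188% to 0.196% of the counted reads in WT, 0.129% to 0.138% in KO1, 0.134% to 0.137% in KO2 and 0.179% to 0.191% in myrAKT. After MK2206 the share was 0.128% to 0.13% in KO1 and 0.119% to 0.127% in KO2. All 12 libraries of the knockout lines thus lay below the 3 WT libraries. In bulk RNA, fewer cells expressing a chain and less RNA of it per cell cannot be told apart.

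To rank chains against each other, levels were taken per length, as RPKM over the merged exons of each gene. Merged exons pool all annotated transcripts (5536 bases for COL6A1, 21516 for COL6A3), and the lengths of the transcripts present were not measured. The order and the ratios per length thus depend on the annotation, and by mean CPM over the 18 libraries COL13A1 ranked first. In WT, COL6A1 led with 37.8 ± 3.25 RPKM (SD, n = 3), followed by COL8A1 at 32.2 ± 3.97 RPKM and COL13A1 at 29.5 ± 0.70 RPKM. COL6A1 and COL8A1 overlapped in WT, as did COL8A1 and COL13A1, so the order at the top is not resolved. Below them came COL6A2 at 20.3 ± 1.14 RPKM and COL4A2 at 16.6 ± 0.744 RPKM. COL12A1 (11.4 ± 0.487 RPKM) and COL4A1 (11 ± 0.259 RPKM) overlapped each other. COL18A1, COL7A1 and COL5A1 overlapped in turn between 5.24 and 6.48 RPKM, COL27A1 and COL17A1 overlapped near 2.13 RPKM, and COL1A1 and COL9A2 stood at 1.86 and 1.63 RPKM. COL5A2, COL4A4 and COL16A1 lay under 0.33 RPKM, and COL6A3 lay at 0.102 to 0.135 RPKM.

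Chains that pair in 1 molecule were often very unequal. COL1A1, which joins COL1A2 in type I collagen, had 393 to 620 counts per library (not scaled to length), whereas COL1A2 had 10 counts in all 18 libraries together and none in WT. COL6A1, COL6A2 and COL6A3 form type VI collagen, and in WT the RPKM of COL6A1 was 1.76 to 2.06 times that of COL6A2 but 293 to 336 times that of COL6A3. In myrAKT the RPKM of COL6A1 was 92.4 to 110.1 times that of COL6A3. COL4A1 and COL4A2, which form the most widespread type IV network, were closer, with an RPKM ratio of 0.641 to 0.690 in WT. Of the other type IV chains COL4A4 was tested, COL4A3 had 9 to 43 counts per library, COL4A5 had 2 counts in all and COL4A6 had 0 to 26 per library. COL5A1 was 17.4 to 21.2 times COL5A2 per length in WT, and COL5A3 had 6 counts in all. Of the type IX chains, COL9A2 was tested, COL9A3 had 2 to 37 counts per library and COL9A1 had 1 count in all.

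Promoter windows from RefSeq (GRCh38.p14) were at hand for 32 of the 44 chains, and for 14 of the 19 that were tested. The first stretch is shown because COL4A1 and COL4A2 are transcribed away from each other from RefSeq starts 127 bases apart and both were called lower in the knockout lines and in myrAKT. COL6A2 is shown as the type VI chain whose calls differ in direction between the knockout lines and myrAKT, COL7A1 as a chain called in each of the main comparisons, and COL17A1 as a membrane collagen called higher in myrAKT. Capitals mark matches on either strand to a TATA box (TATAAA), to a CCAAT box (CCAAT) or to a GC box (GGGCGG). An AP-1 site (TGACTCA) and a forkhead site (GTAAACA) were also searched.
COL4A1 and COL4A2, chr13:110307158-110307283, plus strand: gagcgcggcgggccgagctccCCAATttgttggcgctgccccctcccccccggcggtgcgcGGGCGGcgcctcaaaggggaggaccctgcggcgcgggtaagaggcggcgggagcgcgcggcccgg
COL6A2, chr21:46097862-46098111, plus strand: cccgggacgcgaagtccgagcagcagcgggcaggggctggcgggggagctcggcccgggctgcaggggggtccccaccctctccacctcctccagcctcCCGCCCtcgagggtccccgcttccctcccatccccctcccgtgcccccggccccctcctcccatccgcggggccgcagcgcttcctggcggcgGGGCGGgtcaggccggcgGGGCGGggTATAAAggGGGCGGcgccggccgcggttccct
COL7A1, chr3:48595330-48595579, minus strand: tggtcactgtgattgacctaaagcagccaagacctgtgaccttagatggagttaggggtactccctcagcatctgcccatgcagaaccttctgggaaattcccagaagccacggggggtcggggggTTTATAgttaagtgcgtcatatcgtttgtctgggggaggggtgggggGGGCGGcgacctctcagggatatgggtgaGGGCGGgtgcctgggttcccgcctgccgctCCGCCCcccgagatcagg
COL17A1, chr10:104085881-104086130, minus strand: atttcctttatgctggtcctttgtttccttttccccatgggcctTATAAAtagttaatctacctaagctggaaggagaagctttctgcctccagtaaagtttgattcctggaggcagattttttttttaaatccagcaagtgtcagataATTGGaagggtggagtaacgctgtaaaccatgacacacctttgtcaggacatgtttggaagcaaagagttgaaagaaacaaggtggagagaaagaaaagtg
The last 3 runs are the 250 bases before each start. Of all 35116 windows of 250 bases, 10.7% held the TATA box, 32.0% the CCAAT box, 42.6% the GC box, 4.20% the AP-1 site and 2.98% the forkhead site. Of the 44 windows of collagen chains, which count several starts for some genes, 8 held the TATA box, 12 the CCAAT box and 24 the GC box, and 0 held the AP-1 or the forkhead letters. A match is a description of letters and not a measured binding site.

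The first comparison asked which chains differ between the GPS2 knockout lines and WT. Of the 19 tested chains, 10 were lower and 1 was higher in the 6 untreated knockout libraries (edgeR's quasi-likelihood test, two-sided, Benjamini-Hochberg adjusted p of at most 0.001 over 15587 genes). Over all genes tested, 16.6% were called lower and 15.5% higher. The chains' median log2 fold change was -0.41, against -0.0029 for all genes. The lower chains include the basement membrane chains COL4A1, COL4A2 and COL4A4, the short-chain network chain COL8A1, the membrane collagen COL13A1 and the type IX chain COL9A2, and the higher chain was COL7A1.

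Positions are those of GENCODE on hg38. Among the basement membrane chains, COL4A1 (ENSG00000187498, chr13:110148963-110307157, minus strand) stood at 160.2, 158 and 165 CPM in WT, 99.8, 104 and 96.1 in KO1 and 98.8, 99 and 96.9 in KO2 (log2 fold change -0.72 ± 0.033 SE, adjusted p = 6.87e-08). Its neighbour COL4A2 (ENSG00000134871, chr13:110305812-110513209, plus strand) stood at 305, 323 and 334 CPM in WT, 242, 239 and 227 in KO1 and 205, 195 and 203 in KO2 (log2 fold change -0.57 ± 0.069 SE, adjusted p = 2.84e-05). Both chains lay below every WT library in all 6 knockout libraries. COL4A4 (ENSG00000081052, chr2:227002714-227164453, minus strand), a chain best known from the kidney's basement membrane, was at 3.34, 3.51 and 3.22 CPM in WT, 2.26, 2.29 and 2.07 in KO1 and 1.83, 2.57 and 1.98 in KO2 (log2 fold change -0.65 ± 0.12 SE, adjusted p = 0.000609). COL18A1 (ENSG00000182871, chr21:45405165-45513720, plus strand), the endostatin precursor, was at 54.8, 50.2 and 54.7 CPM in WT, 47.1, 44.6 and 39.6 in KO1 and 40.5, 41.7 and 39.8 in KO2 (log2 fold change -0.35 ± 0.060 SE, adjusted p = 0.000368). Neither of them overlapped WT either, and the change of COL18A1 was the smallest among the called chains. COL18A1 shares 1563 exonic bases with SLC19A1 on the opposite strand, a gene with a mean of 50.3 counts per library.

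COL8A1 (ENSG00000144810, chr3:99638475-99799226, plus strand), a short-chain collagen of vessel walls and the cornea, was at 340.5, 266 and 302 CPM in WT, 175, 174 and 165 in KO1 and 174, 172 and 181 in KO2 (log2 fold change -0.82 ± 0.061 SE, adjusted p = 8.53e-07). COL13A1 (ENSG00000197467, chr10:69801880-69964275, plus strand), a transmembrane collagen of cell adhesion sites, was at 340.2, 330.4 and 346 CPM in WT, 225, 229.8 and 208 in KO1 and 203, 208 and 208 in KO2 (log2 fold change -0.69 ± 0.043 SE, adjusted p = 3.32e-07). These were among the most abundant chains per length in WT, and they were 1.77-fold and 1.61-fold lower in the knockout lines. COL9A2 (ENSG00000049089, chr1:40300489-40317813, minus strand), a chain of the fibril-associated type IX, was at 6.82, 6.99 and 6.76 CPM in WT, 2.94, 3.45 and 2.93 in KO1 and 1.74, 1.59 and 2.2 in KO2 (log2 fold change -1.49 ± 0.20 SE, adjusted p = 6.26e-05). It had the largest fall of all tested chains in this comparison, 2.8-fold.

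The called fibrillar chains, COL1A1 and COL5A1, had smaller fold changes than COL8A1, COL13A1 and COL9A2. COL1A1 (ENSG00000108821, chr17:50184101-50201632, minus strand) was at 16.9, 17 and 16.3 CPM in WT, 12.7, 13 and 13.5 in KO1 and 11.5, 12.4 and 12 in KO2 (log2 fold change -0.43 ± 0.059 SE, adjusted p = 6.83e-05). COL5A1 (ENSG00000130635, chr9:134641803-134844843, plus strand), the type V chain that starts fibril assembly, was at 60.6, 62 and 62.8 CPM in WT, 48.2, 49.6 and 49.4 in KO1 and 43.4, 42.6 and 42.8 in KO2 (log2 fold change -0.45 ± 0.058 SE, adjusted p = 5.06e-05). Both stood below WT in every knockout library. COL27A1, a fibrillar chain of cartilage, did not pass the test (log2 fold change -0.39 ± 0.092 SE, adjusted p = 0.00349), although its knockout libraries, at 20.4 to 27.6 CPM, lay below WT at 28.3 to 35.3 CPM. COL5A2 did not pass it either (log2 fold change 0.50 ± 0.14 SE, adjusted p = 0.0106), and its knockout libraries, at 2.58 to 3.73 CPM, lay above WT at 1.92 to 2.36 CPM.

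COL6A2 of the beaded filaments was at 104, 105 and 115 CPM in WT, 50.7, 52.8 and 48.8 in KO1 and 75.6, 73.2 and 77.4 in KO2 (log2 fold change -0.80 ± 0.15 SE, adjusted p = 0.000642). The knockout lines were both below WT and did not overlap each other. COL6A1 and COL6A3 did not pass the test with the lines pooled (log2 fold change -0.31 ± 0.13 SE, and log2 fold change -0.41 ± 0.28 SE). COL7A1 (ENSG00000114270, chr3:48564073-48595329, minus strand), the anchoring fibril chain, was at 66.6, 67.1 and 58.4 CPM in WT, 108, 103 and 93.6 in KO1 and 113, 116 and 106 in KO2 (log2 fold change 0.72 ± 0.069 SE, adjusted p = 4.93e-06). It was 1.64-fold higher, and all 6 knockout libraries lay above WT. Of the remaining tested chains, COL12A1 (-0.29), COL16A1 (0.16) and COL17A1 (0.12, as log2 fold changes) were not called, and COL20A1 was near 3 counts in both groups.

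**Figure D2:**
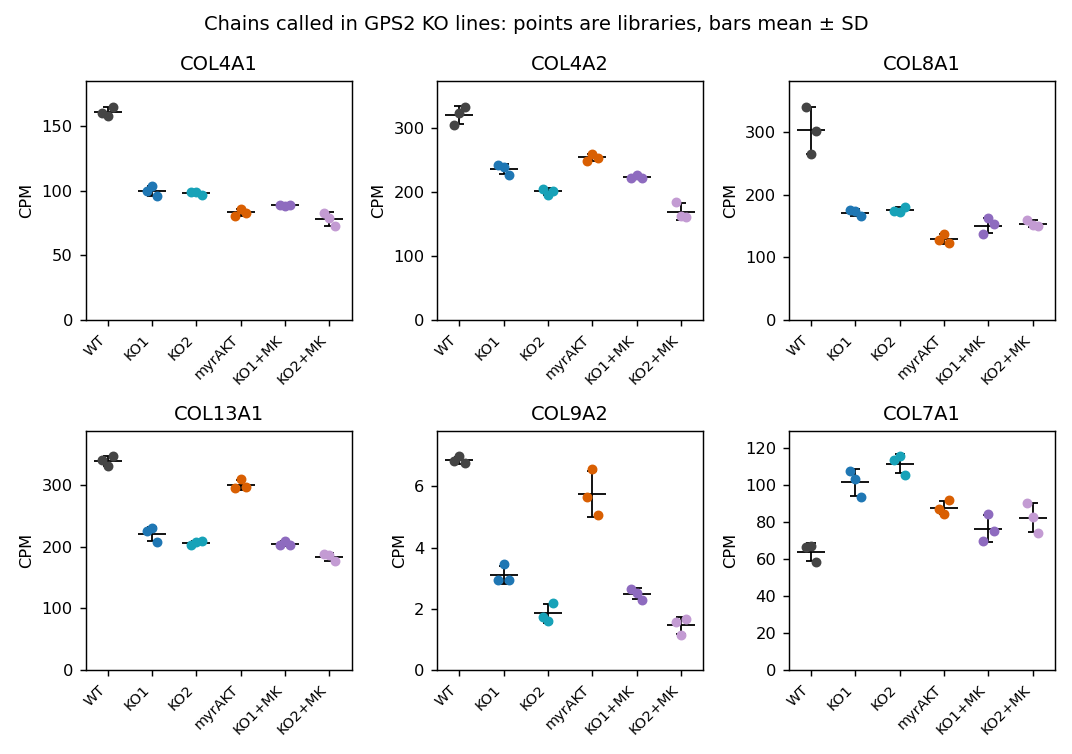
CPM of 6 chains in each of the 6 groups, 1 point per library, with the mean ± SD (n = 3) as bars and each axis starting at 0. COL4A1, COL4A2, COL8A1, COL13A1 and COL9A2 lie lower in KO1 and KO2 than in WT, and COL7A1 lies higher, at 93.6 to 116 CPM against 58.4 to 67.1 CPM.

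The calls of COL4A4, COL6A2 and COL18A1 were lost when any 1 of the 3 WT libraries was left out, with adjusted p of 0.00107 to 0.00662. That of COL4A4 was also lost without any KO1 library, KO2 replicate 1 or KO2 replicate 3 (0.00107 to 0.00166), and that of COL6A2 without KO1 replicate 1 or 2 (0.00126 to 0.00154). Of the fibroblast list, PDGFRB (log2 fold change -0.58) and ACTA2 (-1.07) were also lower in the knockout lines, while DCN, LUM, FAP and POSTN were at or near 0 in every library. The epithelial marker EPCAM (-0.41) was lower there too. The leukocyte marker CD14 reached 1 CPM in WT alone (1.14 to 2.11 CPM, against 0.489 to 0.89 CPM in the knockout lines) and so entered the test only through WT, and no fold is given for it. PTPRC and CD3E were near 0, and the part of these markers in the result was not tested.

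The knockout lines were also compared with WT singly, so both comparisons use the same WT libraries. In KO1, 12 of 19 chains were lower and 1 was higher (21.3% and 20.5% of all genes), and in KO2 11 were lower and 1 was higher (22.2% and 20.8%). COL7A1 was the higher chain in each line, with log2 fold changes of 0.65 in KO1 and 0.80 in KO2. Directly compared, KO1 was lower than KO2 in 3 chains, all of type VI, and higher in 2, where 5.54% and 7.06% of all genes were called. COL6A1 was at 149, 137 and 139 CPM in KO1 and 203, 198 and 199 in KO2 (log2 fold change -0.51 ± 0.034 SE, adjusted p = 8.07e-09). COL6A2 differed by a log2 fold change of -0.58 ± 0.039 SE (adjusted p = 8.07e-09). COL6A3, the lowest of the tested type VI chains, was at 1.24, 1.4 and 1.44 CPM in KO1 and 2.49, 3.27 and 2.23 in KO2 (log2 fold change -0.99 ± 0.18 SE, adjusted p = 0.000382). The 3 tested type VI chains were thus lower in KO1, with no overlap between the lines, while COL6A5 and COL6A6, below the filter, were not called. The share of all genes without overlap between the lines was not taken.

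Against WT, COL6A1 was called lower in KO1 (log2 fold change -0.58 ± 0.051 SE, adjusted p = 1.57e-07) and was at 203, 198 and 199 CPM in KO2 against 189.8, 225 and 213 in WT (log2 fold change -0.072 ± 0.053 SE, adjusted p = 0.254). COL6A3 was called lower in KO1 (log2 fold change -0.98 ± 0.16 SE, adjusted p = 8.73e-05), and its log2 fold change in KO2 was 0.0063 ± 0.17 SE. COL12A1 (ENSG00000111799, chr6:75084326-75206267, minus strand), a fibril-associated chain of tendon and tumour stroma, was at 226, 211 and 209 CPM in WT, 203, 209 and 201 in KO1 and 150.3, 163 and 144 in KO2. It was called lower in KO2 (log2 fold change -0.50 ± 0.048 SE, adjusted p = 8.63e-07), had a log2 fold change of -0.091 in KO1, not called, and was higher in KO1 than in KO2 (log2 fold change 0.41 ± 0.041 SE, adjusted p = 7.59e-07). COL4A2 was called lower in each line but less so in KO1 than in KO2 (log2 fold change 0.22 ± 0.032 SE, adjusted p = 5.00e-05). COL6A3's call between the lines was lost without any KO1 library, KO2 replicate 1 or KO2 replicate 2 (adjusted p of 0.00110 to 0.00450).

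The second comparison asked which chains differ in cells with constitutively active AKT. In myrAKT, 8 of 19 chains were higher and 5 were lower than in WT, where 12.7% of all genes were called higher and 17.3% lower. The chains' median log2 fold change was 0.23, against 0.016 for all genes. Of all called genes 42.3% were higher, and 50.5% with upper-quartile scaling. All 3 tested type VI chains were higher, COL6A3 by 7.23-fold, and COL12A1 was lower by 3.68-fold. The basement membrane chains COL4A1 and COL4A2, COL8A1 and COL1A1 were lower.

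COL6A3 (ENSG00000163359, chr2:237324003-237414328, minus strand), the long chain of type VI collagen, was at 2.19, 2.9 and 2.82 CPM in WT and 17.4, 18.6 and 21.6 in myrAKT (log2 fold change 2.85 ± 0.12 SE, adjusted p = 1.86e-10). COL6A1 (ENSG00000142156, chr21:45981770-46005050, plus strand) was at 189.8, 225 and 213 CPM in WT and 492, 507 and 513 in myrAKT (log2 fold change 1.26 ± 0.060 SE, adjusted p = 6.30e-10), which made it the most abundant collagen chain per length in that line (88.9 to 92.6 RPKM). Downstream of it on the same strand, COL6A2 (ENSG00000142173, chr21:46098112-46132848, plus strand) was at 104, 105 and 115 CPM in WT and 133, 144 and 136 in myrAKT (log2 fold change 0.34 ± 0.051 SE, adjusted p = 5.36e-05). The tested type VI chains thus rose by unequal amounts, and none overlapped WT.

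Chains of other classes rose too. COL17A1 (ENSG00000065618, chr10:104031286-104085880, minus strand), a transmembrane collagen of hemidesmosomes, was at 14.4, 14.9 and 15.4 CPM in WT and 33.6, 31.7 and 30.9 in myrAKT (log2 fold change 1.10 ± 0.058 SE, adjusted p = 1.76e-09). The type V chains COL5A1, at 60.6, 62 and 62.8 CPM in WT and 72.3, 80.7 and 80.9 in myrAKT (log2 fold change 0.33 ± 0.052 SE, adjusted p = 8.80e-05), and COL5A2, at 2.28, 1.92 and 2.36 and 3.48, 3.74 and 3.7 (log2 fold change 0.73 ± 0.14 SE, adjusted p = 0.000691), were both called. COL7A1 was at 87.1, 84.7 and 91.9 CPM in myrAKT (log2 fold change 0.45 ± 0.055 SE, adjusted p = 8.78e-06). All 3 libraries of myrAKT lay above WT for each of these chains. COL16A1 (ENSG00000084636, chr1:31652263-31704319, minus strand), a fibril-associated chain, was at 2.66, 1.97 and 2.36 CPM in WT and 4.23, 3.74 and 3.72 in myrAKT (log2 fold change 0.74 ± 0.15 SE, adjusted p = 0.000808).

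COL12A1 was at 226, 211 and 209 CPM in WT and 55.2, 59.5 and 61.1 in myrAKT (log2 fold change -1.88 ± 0.051 SE, adjusted p = 2.04e-12), the largest fall of any tested chain in this comparison. COL8A1 was at 127, 138 and 122 CPM in myrAKT (log2 fold change -1.24 ± 0.073 SE, adjusted p = 5.35e-09). COL4A1 was at 80.7, 86.2 and 82.9 CPM (log2 fold change -0.96 ± 0.044 SE, adjusted p = 4.05e-10) and COL4A2 at 249, 260.3 and 253 CPM (log2 fold change -0.34 ± 0.048 SE, adjusted p = 2.91e-05). The RPKM ratio of COL4A1 to COL4A2 was 0.426 to 0.435 in myrAKT and 0.641 to 0.690 in WT, so the neighbours fell by unequal amounts. COL1A1 was at 11.8, 12.8 and 10.8 CPM (log2 fold change -0.51 ± 0.073 SE, adjusted p = 3.67e-05). Of the 6 chains not called, COL20A1 had the largest value (log2 fold change 1.47 ± 0.45 SE, on 3 to 12 counts per library), and COL13A1, COL9A2, COL4A4, COL27A1 and COL18A1 lay between -0.26 and 0.23.

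**Figure D3:**
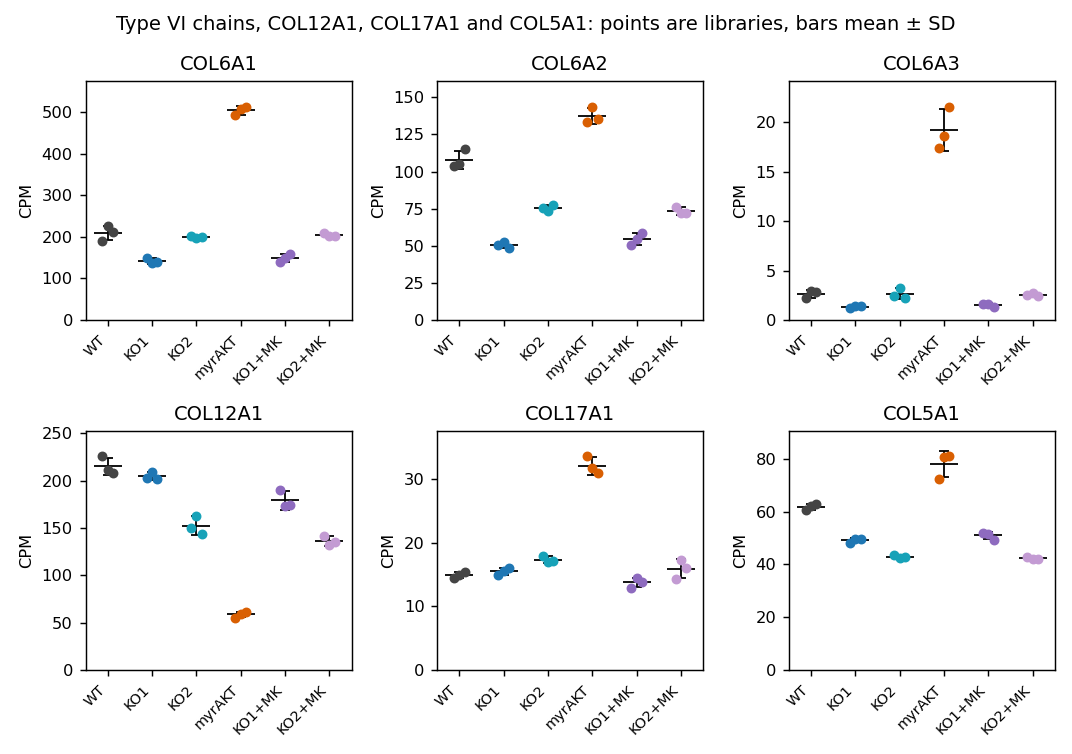
CPM of 6 chains in each of the 6 groups, 1 point per library, with the mean ± SD (n = 3) as bars and each axis starting at 0. The myrAKT libraries stand above all other groups for COL6A1, COL6A2, COL6A3, COL17A1 and COL5A1 and below all other groups for COL12A1, and KO1 lies below KO2 for these type VI chains with and without MK2206.

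In myrAKT the fibroblast marker PDGFRB was lower (log2 fold change -1.73) and ACTA2 higher (0.88), with DCN, LUM, FAP and POSTN at or near 0, and EPCAM was lower (-1.90). COL16A1's call was lost without WT replicate 2 or 3 or without myrAKT replicate 1 or 2, and COL5A2's call without any 1 of the 6 libraries, with adjusted p of 0.00153 to 0.00591.

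The knockout and myrAKT comparisons share the WT libraries, so their values are given side by side only. COL4A1 (-0.72 in the knockout lines and -0.96 in myrAKT, as log2 fold changes against WT), COL4A2 (-0.57 and -0.34), COL8A1 (-0.82 and -1.24) and COL1A1 (-0.43 and -0.51) were called lower in each. COL7A1 (0.72 and 0.45) was called higher in each. COL5A1 (-0.45 and 0.33) and COL6A2 (-0.80 and 0.34) were called in opposite directions.

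Compared directly, without WT, the knockout lines were lower than myrAKT in 10 chains and higher in 3, where 16.7% and 19.1% of all genes were called. Upper-quartile scaling moved the share of higher calls among all called genes from 53.3% to 44.8% here. COL6A3 (log2 fold change -3.27 ± 0.23 SE, adjusted p = 3.06e-07), COL6A1 (-1.57) and COL6A2 (-1.14) had lower levels in the knockout lines, as did COL9A2 (-1.23), COL17A1 (-0.98), COL4A4 (-0.84), COL5A1 (-0.78), COL27A1 (-0.62), COL13A1 (-0.51) and COL18A1 (-0.37). COL12A1 (log2 fold change 1.59 ± 0.13 SE, adjusted p = 9.05e-07), COL8A1 (0.41) and COL4A1 (0.24) were higher in the knockout lines. For COL1A1 the log2 fold change was 0.072 ± 0.071 SE, which did not pass the test.

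**Figure D4:**
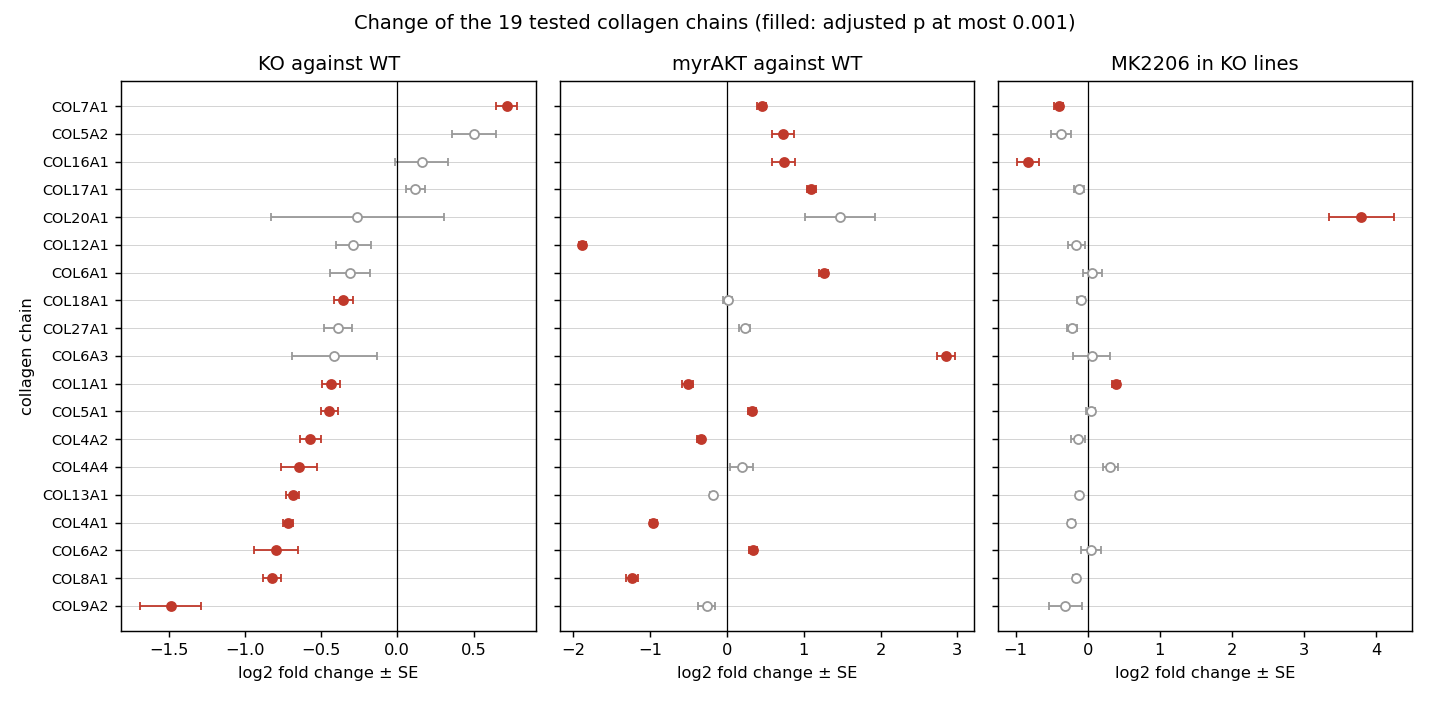
Log2 fold change ± SE of the 19 tested chains in the knockout lines against WT, in myrAKT against WT and after MK2206 in the knockout lines, ordered by the first panel, with filled points where the adjusted p did not exceed 0.001 and a separate range on each horizontal axis. On the left 10 chains are called lower and COL7A1 higher, calls go in both directions in the middle, and 4 chains are called on the right, among them COL20A1, which entered the test only through the treated libraries.

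The third comparison asked which chains differ after MK2206 in the knockout lines. Over both lines, 2 chains were higher and 2 were lower in the 6 treated than in the 6 untreated libraries, where 12.8% of all genes were called higher and 8.75% lower. This fit leaves out the line. With the line as a covariate more chains were called, a share near the 36.3% of all genes called there. The chains' median log2 fold change was -0.12, against -0.0031 for all genes. COL1A1 and COL20A1 were higher, and COL7A1 and COL16A1 were lower. COL20A1 passed the filter only through the treated libraries and its call was fixed by that, so without it 1 of 18 chains was higher and 2 were lower. These calls share the untreated knockout libraries with the comparison against WT, and the treated libraries were the shallower ones; the part of depth in these results was not tested.

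COL1A1 was at 12.7, 13 and 13.5 CPM in KO1 and 16.9, 15.6 and 16.6 after MK2206, and at 11.5, 12.4 and 12 in KO2 and 15.2, 17.1 and 15.7 after it (log2 fold change 0.39 ± 0.051 SE, adjusted p = 2.64e-05). No treated library overlapped an untreated one, and the treated libraries covered a range of 15.2 to 17.1 CPM that holds the 3 WT libraries (16.3 to 17 CPM). COL7A1 was at 108, 103 and 93.6 CPM in KO1 and 69.8, 84.5 and 75.2 after MK2206, and at 113, 116 and 106 in KO2 and 90.4, 82.5 and 74.4 after it (log2 fold change -0.40 ± 0.064 SE, adjusted p = 0.000155). Every treated library lay below the untreated ones and above the WT libraries (58.4 to 67.1 CPM). COL16A1 was at 3.02, 3.4 and 1.93 CPM in KO1 and 1.25, 1.63 and 1.13 after MK2206, and at 2.37, 2.65 and 2.45 in KO2 and 1.71, 1.65 and 1.37 after it (log2 fold change -0.83 ± 0.15 SE, adjusted p = 0.000417). Its treated libraries lay below WT (1.97 to 2.66 CPM). COL4A1 (log2 fold change -0.23 ± 0.047 SE, adjusted p = 0.00124) and COL8A1 (-0.17 ± 0.037 SE, adjusted p = 0.00196) did not pass the test. Yet all their treated libraries lay below the untreated ones, further from WT. The other chains called in the knockout lines overlapped between treated and untreated libraries.

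COL20A1, a fibril-associated chain, had 3, 3 and 4 counts in KO1 and 36, 17 and 14 after MK2206, and 0, 4 and 5 in KO2 and 34, 46 and 57 after it. The treated libraries reached 0.48 to 1.9 CPM, the untreated ones 0 to 0.136 CPM. Since it entered the test only through the treated libraries, it had to differ, and its untreated level is near that of 3 counts, so no fold or p is given for it. COL20A1 (ENSG00000101203, chr20:63293186-63334851, plus strand) lies downstream of ARFGAP1 on the same strand, which was at 99.4 to 109.8 CPM untreated and 93.2 to 105 CPM treated (log2 fold change -0.069 ± 0.034 SE, adjusted p = 0.114).

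**Figure D5:**
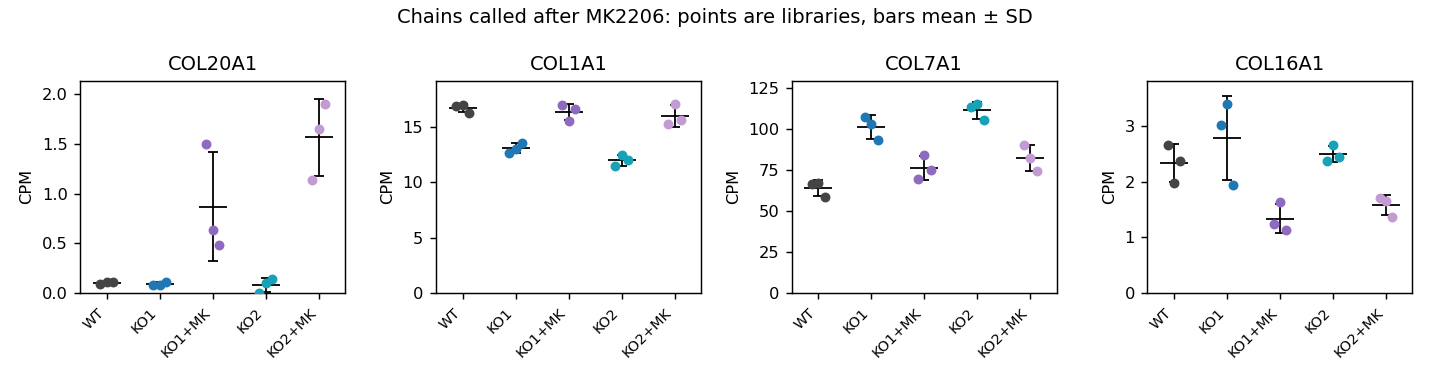
CPM of the 4 chains called after MK2206, with 1 point per library and the mean ± SD (n = 3) as bars, in WT and in each knockout line without and with the inhibitor, each axis starting at 0. COL20A1 and COL1A1 are higher and COL7A1 and COL16A1 lower in the treated libraries of each line.

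Within the lines and without COL20A1, MK2206 gave 1 higher chain and 1 lower of 18 in KO1 (10.9% and 8.26% of all genes) and 1 higher and 3 lower in KO2 (13.1% and 8.78%). COL1A1 had log2 fold changes of 0.35 in KO1 and 0.43 in KO2, and COL7A1 of -0.38 and -0.42, all called. COL4A1 (log2 fold change -0.31 ± 0.045 SE, adjusted p = 5.41e-05) and COL4A2 (log2 fold change -0.23 ± 0.046 SE, adjusted p = 0.000897) were called lower in KO2, with values of -0.14 and -0.059 in KO1. COL16A1 was not called within either line (-1.04 in KO1 and -0.64 in KO2). The difference in response between the lines was called for 0 of 19 chains by edgeR (0% of all genes higher and 0.0128% lower) and for 0 by DESeq2 (0.141% of all genes), with 3 chains and 1251 genes at an unadjusted p under 0.05. Those 3 chains were COL4A1, COL4A2 and COL6A2, with log2 fold changes in KO1 minus those in KO2 of 0.17, 0.17 and 0.15. The tested type VI chains showed no call after MK2206, with log2 fold changes of 0.066 ± 0.13 SE for COL6A1, 0.046 ± 0.14 SE for COL6A2 and 0.053 ± 0.26 SE for COL6A3.

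COL16A1's pooled call was lost without KO1 replicate 1 or 2, KO1+MK replicate 1 or 3, or KO2+MK replicate 3 (adjusted p of 0.00102 to 0.00136). Leaving COL20A1 aside, 0 chains were called in KO1 alone without KO1 replicate 1 or 2 and 1 without KO1+MK replicate 2 or 3, in place of 2. In KO2 alone 2 were called without KO2 replicate 1 or KO2+MK replicate 2, in place of 4. Upper-quartile scaling moved the share of higher calls among all called genes from 59.3% to 48.3% with the lines pooled, from 56.9% to 47.9% in KO1 and from 59.9% to 47.5% in KO2.

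Genes that modify, fold, trim and bind collagen chains were counted from 3 hand-written lists. Of the modification and folding list, which holds prolyl and lysyl hydroxylases, glycosyltransferases and chaperones and also the export factor MIA3, the channel TMEM38B and the transcription factor CREB3L1, 20 of 21 members were tested. In the knockout lines 10 were lower and 0 higher (16.6% and 15.5% of all genes), with a median log2 fold change of -0.30. The 3 with the largest change were CREB3L1, which acts on secretory and collagen genes (log2 fold change -1.49 ± 0.091 SE, adjusted p = 2.82e-07), COLGALT2, a collagen galactosyltransferase (log2 fold change -1.29 ± 0.17 SE, adjusted p = 5.90e-05), and P3H3, a prolyl 3-hydroxylase family member (log2 fold change -0.80 ± 0.14 SE, adjusted p = 0.00050). In myrAKT 7 were lower and 4 higher (17.3% and 12.7% of all genes), with a median of -0.13. FKBP10, a collagen prolyl isomerase (log2 fold change -1.89 ± 0.11 SE, adjusted p = 3.68e-09), and COLGALT2 (log2 fold change -1.35 ± 0.083 SE, adjusted p = 7.98e-09) were lower, and PLOD1, a lysyl hydroxylase (log2 fold change 0.81 ± 0.053 SE, adjusted p = 1.58e-08), was higher. After MK2206 only MIA3, which helps bulky collagens leave the endoplasmic reticulum, was called among them by edgeR (log2 fold change 0.23 ± 0.047 SE, adjusted p = 0.000968), and 1 of 20 lies below the 12.8% of all genes called higher. DESeq2 called 3 of the list and 29.6% of all genes.

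Of 13 genes of procollagen trimming and crosslinking, 10 were tested, and 4 were lower and 0 higher in the knockout lines, against 16.6% and 15.5% of all genes (median -0.34). They were led by the lysyl oxidases LOXL4 (log2 fold change -1.33 ± 0.10 SE, adjusted p = 1.12e-06), LOXL2 (log2 fold change -0.72 ± 0.041 SE, adjusted p = 1.90e-07) and LOX (log2 fold change -0.64 ± 0.094 SE, adjusted p = 0.000123). In myrAKT 5 were lower and 1 higher (median -0.32), where 17.3% and 12.7% of all genes were called. ADAMTS2, the protease that removes the amino-terminal propeptide of fibrillar procollagens, passed the filter only through WT and is among the 5, so without it 4 of 9 were lower and 1 was higher (median -0.27). LOX was at 118 to 137 CPM in WT and 48 to 50.5 CPM in myrAKT (log2 fold change -1.40 ± 0.059 SE, adjusted p = 1.92e-10), and LOXL4 had a log2 fold change of -1.16 ± 0.087 SE. ADAMTS2 had 49 to 95 counts per library in WT and 0 to 1 in myrAKT, and since its place in the test rested on WT no fold or p is given for it. After MK2206, LOXL3 was the member called by edgeR (log2 fold change -0.57 ± 0.095 SE, adjusted p = 0.000214), and 1 of 10 is near the 8.75% of all genes called lower. DESeq2 called 2 of the list and 29.6% of all genes.

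Of 9 collagen receptors and uptake genes, 8 were tested, and 6 were lower and 0 higher in the knockout lines, against 16.6% and 15.5% of all genes (median -0.71). The largest changes were those of the integrin subunit ITGA10 (log2 fold change -1.54 ± 0.10 SE, adjusted p = 3.09e-07), the endocytic collagen receptor MRC2 (log2 fold change -0.98 ± 0.055 SE, adjusted p = 1.87e-07) and the collagen-binding kinase DDR1 (log2 fold change -0.83 ± 0.054 SE, adjusted p = 4.05e-07). In myrAKT 3 were lower and 1 higher, against 17.3% and 12.7% of all genes (median -0.069), so the 1 higher of 8 is at the background, with ITGA1 (log2 fold change -0.84 ± 0.071 SE, adjusted p = 2.07e-07) and CD44 (log2 fold change -0.50 ± 0.048 SE, adjusted p = 7.54e-07) lower and MRC2 higher (log2 fold change 0.46 ± 0.057 SE, adjusted p = 1.15e-05). After MK2206, 0 were called by edgeR and 1 by DESeq2, which called 29.6% of all genes, and 5 had an unadjusted p under 0.05, as had 53.4% of all genes.

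The 25 chains below the filter were looked at in a fit of all 42387 genes with at least 1 count, where 6.75% of genes were called higher and 6.50% lower in the knockout lines. Of these chains 2 were called lower there and 0 higher, a share near that background. COL8A2, the partner of COL8A1, had 36, 33 and 21 counts in WT, 22, 8 and 11 in KO1 and 9, 9 and 9 in KO2 (log2 fold change -1.43, adjusted p = 0.000431). COL9A3, a partner of COL9A2, had 13, 19 and 23 counts in WT, 5, 2 and 9 in KO1 and 2, 8 and 6 in KO2 (log2 fold change -1.78, adjusted p = 0.000532). COL9A3 shares 155 exonic bases with TCFL5 on the opposite strand.

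In myrAKT, 3 chains below the filter were called higher and 1 lower, where 4.82% and 7.42% of these genes were called. COL4A6, a type IV chain of epithelia, had 2, 1 and 2 counts in WT and 18, 21 and 26 in myrAKT. COL15A1, a basement membrane multiplexin, had 7, 7 and 5 counts in WT and 24, 28 and 20 in myrAKT (log2 fold change 1.94, adjusted p = 1.53e-05). COL19A1 had 3, 0 and 3 and 7, 15 and 11 counts, and it shares 85 exonic bases with LMBRD1 on the opposite strand. The WT counts of COL4A6 and COL19A1 did not exceed 3, so no fold is given for them. COL8A2 was the lower chain, with 7, 7 and 9 counts in myrAKT (log2 fold change -1.94, adjusted p = 1.43e-06). After MK2206, where 3.94% of these genes were called higher and 3.28% lower, 1 of 25 chains below the filter was called higher, a share at that background. This was COL11A2, a fibrillar chain of cartilage, with 10, 7 and 11 counts in KO1 and 20, 19 and 21 after treatment, and 12, 11 and 9 in KO2 and 18, 23 and 40 after treatment (log2 fold change 1.61, adjusted p = 2.25e-05). All its treated counts lay above the untreated ones, although the treated libraries were shallower.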

How the data were processed

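Gene counts from RNA-seq of 18 MDA-MB-231 libraries were analysed, 3 in each of 6 groups taken from the labels. The deposited values are raw counts of reads for each Ensembl gene, which the authors neither normalised nor filtered. The authors depleted ribosomal RNA, trimmed with Trim Galore, aligned to hg38 with HISAT2 and counted with featureCounts. Versions, annotation, strand setting and the rule for reads in several genes are not given in the sources used here, so overlapping genes are uncertain. GENCODE release 44 gave symbols to 41445 of 57448 rows and positions and exon lengths to 56948. The 3 pseudogene or noncoding collagen rows were left out.

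A gene was tested if 3 or more libraries reached 1 CPM (15587 genes), with edgeR 4.0.16 in R 4.3.3 (TMM, quasi-likelihood test, two-sided, Benjamini-Hochberg over all genes) and called at an adjusted p of at most 0.001. Each fit held only the groups compared, with both knockout lines pooled without a covariate unless named. CPM and RPKM use TMM-normalised library sizes. Overlap between the libraries of 2 groups was looked at for the chains only, without the share over all genes, so it is a description of these chains. Replicates differed by more than sampling noise, with a mean chi-square per gene of 1.99 to 8.62, so no library was counted as a copy of another. The test was also run on simulated counts with far fewer changed genes than most comparisons called and no difference between pooled lines. Its outcome is not given here, and it does not measure false calls in these data. Alternatives were DESeq2 1.42.0, other scalings, other filters, all libraries in 1 fit, separate lines, a line covariate, a replicate block, a fold of at least 1.5 with an adjusted p of at most 0.001 or 0.05, and each library left out. Named were the chains called in a main comparison or among the 10 most abundant, GPS2, AKT1, and of each list the 3 largest called changes in the knockout and myrAKT comparisons and 2 after MK2206; ARFGAP1 and the chains below the filter were picked with their values in view. The members and lists were chosen with earlier results of these data known. Tables used Python 3.11.15, pandas 2.3.3, numpy 2.4.6 and matplotlib 3.10.9.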

Additional observations from a re-analysis of the deposited data

Results flagged for a closer look

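Between the knockout lines 5 chains differed (KO1 against KO2, which carry the same label of GPS2 knockout and differ in their guides) by a test of that difference (edgeR's quasi-likelihood test, adjusted p of at most 0.001). COL6A3 (log2 fold change -0.99), COL6A2 (-0.58) and COL6A1 (-0.51) were lower in KO1. COL12A1 (0.41) and COL4A2 (0.22) were higher in KO1. Of all genes 5.54% were called lower and 7.06% higher in KO1, and the 2 higher of 19 chains are near that share. Each group had 3 libraries, too few for a search for single outlying libraries.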

How the results depend on the processing

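For 33 called changes, 599 values under alternative settings were compared with the main one, with each fit counted once for every called chain. None reversed, and 528 kept the call. The settings with a fold cut reuse the main fit, so their values could not reverse. COL20A1, whose call the filter fixed, is among the 33. With a fold of at least 1.5 added at an adjusted p of at most 0.001, the chains called numbered 7 in the knockout lines, 8 in KO1, 6 in KO2, 8 in myrAKT, 2 after MK2206 in both lines, 1 in KO1, 1 in KO2 and 1 between the lines, where in that order 12.7%, 13.9%, 16.7%, 13.8%, 6.53%, 5.01%, 7.06% and 2.62% of all genes were called. Without COL20A1, which the filter fixed, the MK2206 counts are 1, 0 and 0. At 0.05 with that fold they numbered 7 in the knockout lines, 8 in KO1, 2 after MK2206 in both lines, 2 in KO2 and 2 between the lines, or 1 and 1 after MK2206 without COL20A1, against 4.71% to 17.6% of all genes. All 18 libraries in 1 fit gave 8 chains after MK2206 and the line as a covariate gave 7, or 7 and 6 without COL20A1, near the 37.2% and 36.3% of all genes called there. For MK2206 in KO1, DESeq2 gave 5 (22.1% of all genes) and the filter of at least 1 count gave 8 (10.0%), or 4 and 7 without COL20A1, and that filter gave 8 between the lines (7.19%); all 44 chains are tested there. The cause of the other shifts was not tested. Same-numbered replicates correlated between -0.54 and 0.32 in their deviations from the group means, so the numbers do not pair the samples; with a replicate block 8 chains were called between the lines in place of 5 (17% of all genes), 8 in the knockout lines in place of 11 (23.9%), without COL4A4, COL6A2 and COL18A1, and 11 in myrAKT in place of 13 (27.1%), without COL16A1 and COL5A2. With single libraries left out, the counts ranged from 8 to 11 in the knockout lines, 11 to 13 in KO1, 12 to 13 in KO2, 11 to 12 in myrAKT, 3 to 5 after MK2206 in both lines, 0 to 4 in KO1, 3 to 6 in KO2, 4 to 6 between the lines, 9 to 13 for knockout against myrAKT and 0 to 0 for the difference in response. Without COL20A1 the MK2206 ranges were 2 to 4, 0 to 3 and 2 to 5. Where leaving a library out left 2 in a group, the spread was pooled over the groups of the fit. COL20A1 could not be tested with at least 10 counts in every library. Depth limits the 13 chains under 0.1 CPM.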
